A study of Caenorhabditis elegans with 12 samples.

Results

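The genes described here are 8 genes of the SKN-1 and glutathione or thioredoxin defence of Caenorhabditis elegans: skn-1, wdr-23, gcs-1, gss-1, gsr-1, trxr-1, trxr-2 and sdz-8. They were taken as every probe set annotated to 1 of these symbols alone, which gave 13 probe sets of the 22548 tested, and 8 genes of the 17118 measured. All 8 had at least 1 probe set, and skn-1 had 3, gcs-1, gss-1 and trxr-1 had 2 each, and the others had 1. Wild-type N2 (Bristol) animals, synchronised by bleaching, entered the solutions as larvae 12 h old and stayed there for 48 h. The 4 groups were sulfidized (artificially aged) silver nanoparticles, pristine silver nanoparticles, silver nitrate and a control treatment, with 3 arrays each. Each silver form was given at its own EC30 for reproduction (the level with a 30% effect), so doses differ between forms. RNA came from whole populations of 2000 to 3000 animals, and the labels do not tie replicates to separate cultures, so the p-values rest on a spread between samples that could be technical.

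SKN-1 is the worm counterpart of the mammalian Nrf transcription factors and turns on phase II detoxification genes, largely in the intestine. WDR-23 holds SKN-1 down by directing it to a ubiquitin ligase. Among the genes SKN-1 activates is gcs-1, whose product makes the first and limiting step of glutathione synthesis, and silver ions bind thiols such as those of glutathione and of the thioredoxin reductases. The study's title asks how animals respond to sulfidized silver nanoparticles, and the comparison here is whether this thiol defence responded differently to the silver forms.

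None of the 8 genes passed the test in any comparison. limma called 0 of the 13 probe sets (Benjamini-Hochberg adjusted p under 0.05 over all 22548) against control with aged particles, where 0.00887% of all probe sets were called, with pristine particles (0.00443%) or with silver nitrate (0.133%). At an unadjusted p under 0.05 there were 1 of 13 with aged particles, 0 with pristine particles and 2 with silver nitrate, against 8.25%, 8.63% and 12.3% of all probe sets. The F test over the 3 silver groups also called 0 of the 13, against 0.0621% of all probe sets, and 1 of 13 had an unadjusted p under 0.05, against 12.9%. The unadjusted 95% intervals of the differences give a rough range for each probe set taken alone. They are no joint limit over the probe sets, and they rest on the same spread between samples as the p-values. Over all 13 probe sets they reached from −0.82 (trxr-1) to 0.94 (sdz-8) in log2 with aged particles, from −0.59 (trxr-1) to 0.96 (skn-1) with pristine particles, and from −0.68 (skn-1) to 1.07 (sdz-8) with silver nitrate. The last of these upper ends is 2.09-fold, and without sdz-8 the highest with silver nitrate was 1.59-fold. No array of any of the 13 probe sets lay at the signal floor of 16, so none of these values is a bound set by the floor.

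**Figure D1:**
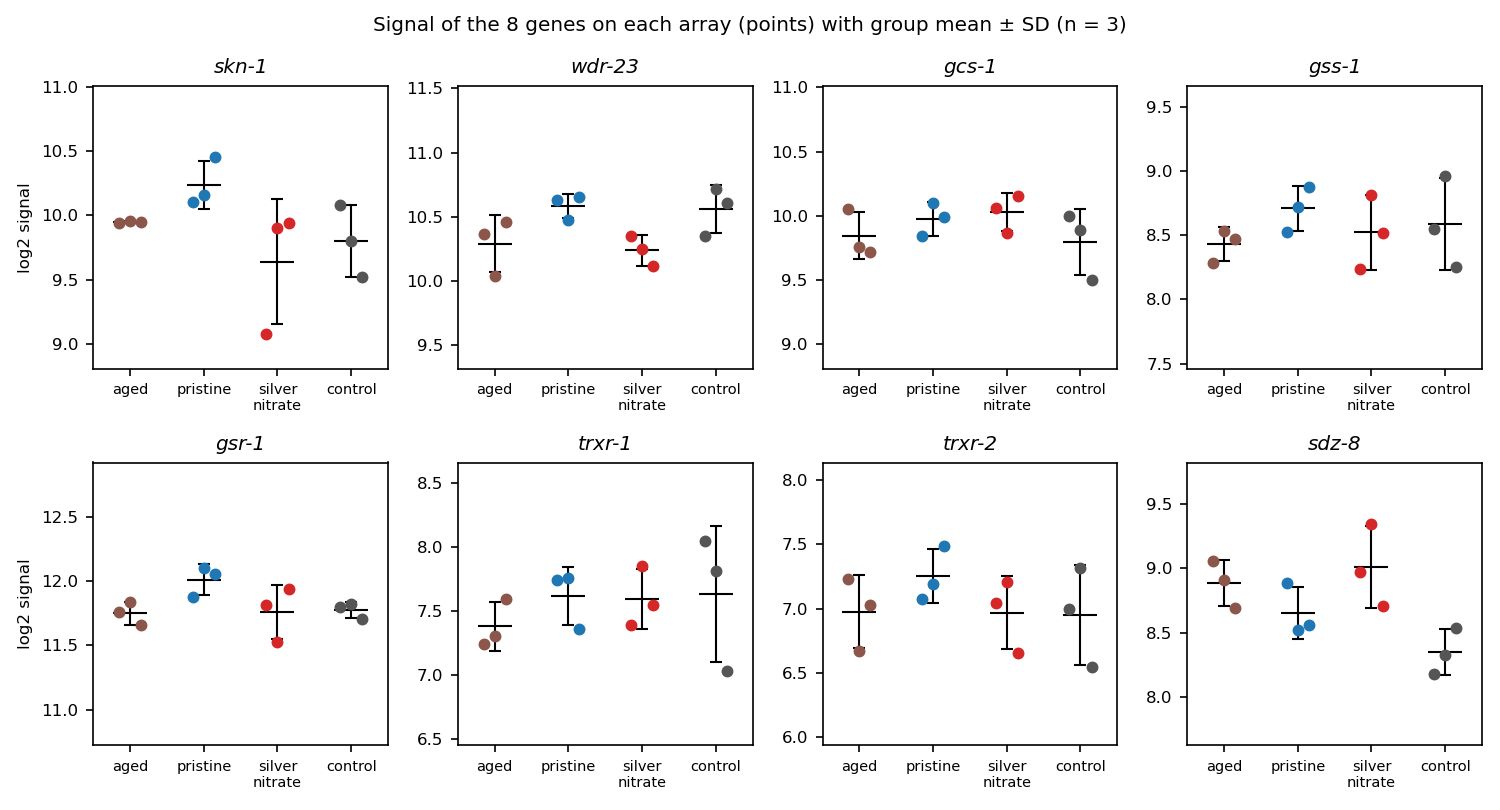
Log2 signal (vertical axis) of the probe set standing for each of the 8 genes on every array, with aged, pristine, silver nitrate and control groups from left to right; points are arrays, bars are the group mean and SD (n = 3 arrays), and each panel spans the same range. No groups are fully separated in the panels of gcs-1, gss-1, trxr-1 and trxr-2. Pristine arrays lie above all control arrays for skn-1 and gsr-1, and above all aged arrays for skn-1, wdr-23 and gsr-1. They lie above all silver nitrate arrays for skn-1 and wdr-23. Aged arrays lie above all silver nitrate arrays for skn-1 only by 9.9417 against 9.9415 where they come closest. sdz-8 is the gene in which all aged and all silver nitrate arrays lie above all control arrays.

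The regulator skn-1 had its highest group mean with pristine particles in 2 of its 3 probe sets. Its brightest probe set had a scaled signal of 983, 995 and 988 with aged particles, 1102, 1140 and 1401 with pristine particles, 540, 957 and 983 with silver nitrate, and 1085, 892 and 735 in control. All 3 pristine arrays lay above all 3 control arrays, while the aged and silver nitrate arrays overlapped with control, and silver nitrate replicate 1 was the lowest of the 12. On the log2 scale the group means were 9.95 ± 0.01 (aged), 10.24 ± 0.19 (pristine), 9.64 ± 0.49 (silver nitrate) and 9.80 ± 0.28 (control; SD, n = 3 arrays each). The log2 difference of pristine particles from control was 0.44 ± 0.23 (SE, limma adjusted p = 0.67), or 1.35-fold. The second probe set repeated the separation at a smaller size. It read 978, 1037 and 994 with pristine particles and 918, 862 and 779 in control, a log2 difference of 0.24 ± 0.12 (SE, limma adjusted p = 0.661). The dimmest probe set of skn-1 was highest with aged particles, at 0.37 ± 0.21 over control (SE, limma adjusted p = 0.714), and its pristine difference was 0.20 ± 0.21 (SE, limma adjusted p = 0.862). Without control replicate 3 these were 0.13 (aged) and −0.04 (pristine). The gene makes several transcripts, and which of them each probe set reads is not resolved here.

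The repressor wdr-23 lay lowest with silver nitrate. Its signal was 1322, 1053 and 1411 with aged particles, 1582, 1426 and 1610 with pristine particles, 1309, 1217 and 1108 with silver nitrate, and 1308, 1687 and 1558 in control. The silver nitrate and control groups overlapped only through 1309 in silver nitrate replicate 1 and 1308 in control replicate 1. With silver nitrate the log2 difference was −0.32 ± 0.13 (SE), 1.25-fold lower, with a 95% interval from −0.62 to −0.02 and a limma adjusted p of 0.367. With aged particles it was −0.27 ± 0.13 (SE, limma adjusted p = 0.649), or −0.14 without aged replicate 2, and with pristine particles 0.03 ± 0.13 (SE, limma adjusted p = 1). Over the arrays left out in turn, the lowest silver nitrate value was −0.42 (without control replicate 1) and the highest −0.24 (without control replicate 2).

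For the 2 enzymes of glutathione synthesis no difference from control passed. gcs-1 codes for the catalytic subunit of glutamate-cysteine ligase. Its brighter probe set read 1063, 867 and 843 with aged particles, 916, 1099 and 1015 with pristine particles, 1069, 932 and 1139 with silver nitrate, and 1021, 948 and 725 in control. Every exposed group overlapped with control. The log2 differences were 0.05 (aged), 0.18 (pristine) and 0.23 (silver nitrate), each ± 0.15 (SE), and the smallest limma adjusted p was 0.596. The interval for silver nitrate ran from −0.10 to 0.57, which ends at 1.48-fold higher. Without control replicate 3, the lowest control array, the silver nitrate difference was 0.08.

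The other gcs-1 probe set had much tighter control arrays, at 502, 480 and 490. It read 474, 409 and 477 with aged particles, 557, 548 and 559 with pristine particles, and 509, 736 and 483 with silver nitrate. Here all pristine arrays lay above and all aged arrays below the control arrays, and the silver nitrate mean rested on replicate 2. The log2 differences from control were −0.12 (aged), 0.18 (pristine) and 0.21 (silver nitrate), each ± 0.14 (SE), and no limma adjusted p was below 0.622. Without silver nitrate replicate 2 that group's difference was 0.02. The same array had the lowest 3-prime minus 5-prime log2 signal of the array control genes, 1.67, where the other 11 arrays had 1.92 to 2.1. It was also the highest silver nitrate array for 4 of the 8 genes by their brightest probe sets, sdz-8 among them. Its part in the results was not tested.

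The next enzyme, glutathione synthetase (gss-1), adds glycine to complete glutathione. Its brighter probe set read 311, 370 and 356 with aged particles, 369, 422 and 471 with pristine particles, 301, 450 and 366 with silver nitrate, and 374, 499 and 306 in control, so all groups overlapped. Its log2 differences from control were −0.16 (aged), 0.12 (pristine) and −0.07 (silver nitrate), each ± 0.20 (SE). The interval for aged particles reached 1.52-fold lower. The dimmer probe set differed from control by 0.05, 0.13 and 0.06 in the same order, each ± 0.13 (SE). The 2 probe sets thus had opposite signs with aged particles and with silver nitrate, in each case within 1 SE of 0.

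Glutathione reductase (gsr-1), which recycles oxidised glutathione with NADPH, had the smallest SE of the 13 probe sets and lay highest with pristine particles. Its signal was 3467, 3654 and 3226 with aged particles, 3763, 4394 and 4260 with pristine particles, 3594, 2953 and 3926 with silver nitrate, and 3558, 3619 and 3338 in control. All pristine arrays lay above all control arrays, and above all aged arrays. The log2 difference of pristine particles from control was 0.24 ± 0.11 (SE, limma adjusted p = 0.588), or 1.18-fold, and its interval started just under 0. For aged particles and silver nitrate it was −0.02 and −0.01, with intervals that ended at 1.16-fold and 1.17-fold higher.

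Thioredoxin reductases pass electrons from NADPH to thioredoxin. trxr-1 codes for the cytosolic enzyme, a selenoprotein, and trxr-2 for the mitochondrial one. The brighter trxr-1 probe set read 151, 158 and 194 with aged particles, 214, 217 and 164 with pristine particles, 168, 230 and 187 with silver nitrate, and 265, 225 and 131 in control. The control arrays spanned more than those of any exposed group (SD 0.53 on the log2 scale). Its log2 differences were −0.25 (aged), −0.01 (pristine) and −0.04 (silver nitrate), each ± 0.25 (SE). The other trxr-1 probe set had 0.29 (aged), 0.35 (pristine) and 0.11 (silver nitrate), each ± 0.18 (SE), the opposite sign in all 3 comparisons. None of these 6 values passed, with limma adjusted p of 0.654 or more. For trxr-1 the arrays therefore give no direction.

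The mitochondrial trxr-2 read 150, 102 and 131 with aged particles, 135, 146 and 179 with pristine particles, 132, 148 and 101 with silver nitrate, and 128, 159 and 93.3 in control. All groups overlapped. The log2 differences were 0.03 (aged), 0.30 (pristine) and 0.02 (silver nitrate), each ± 0.23 (SE), and the smallest limma adjusted p was 0.782. Without control replicate 3 these were −0.18, 0.10 and −0.19 in the same order.

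The gene sdz-8, named as a SKN-1-dependent transcript of the zygote and used as a readout of SKN-1, had the largest difference from control of the 8 genes. Its signal was 532, 481 and 414 with aged particles, 473, 367 and 377 with pristine particles, 502, 650 and 419 with silver nitrate, and 290, 321 and 371 in control. All aged and all silver nitrate arrays lay above all control arrays, while 1 pristine array lay just below the highest control array. Group means on the log2 scale were 8.89 ± 0.18 (aged), 8.65 ± 0.20 (pristine), 9.01 ± 0.32 (silver nitrate) and 8.35 ± 0.18 (control; SD, n = 3 arrays each). With silver nitrate the gene was 1.58-fold higher, a log2 difference of 0.66 ± 0.18 (SE, 95% interval 0.26 to 1.07, limma adjusted p = 0.176). With aged particles it was 1.45-fold higher, at 0.54 ± 0.18 (SE, 95% interval 0.13 to 0.94, limma adjusted p = 0.479). With pristine particles it was 1.24-fold higher, at 0.31 ± 0.18 (SE, limma adjusted p = 0.713). For the mean of the 3 silver groups the difference was 0.50 ± 0.15 (SE, limma adjusted p = 0.338). In that comparison 0 of the 13 probe sets were called, against 0.00443% of all probe sets. Leaving out 1 array at a time put the silver nitrate value between 0.49, when replicate 2 of that group was dropped, and 0.81, when its replicate 3 was.

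**Figure D2:**
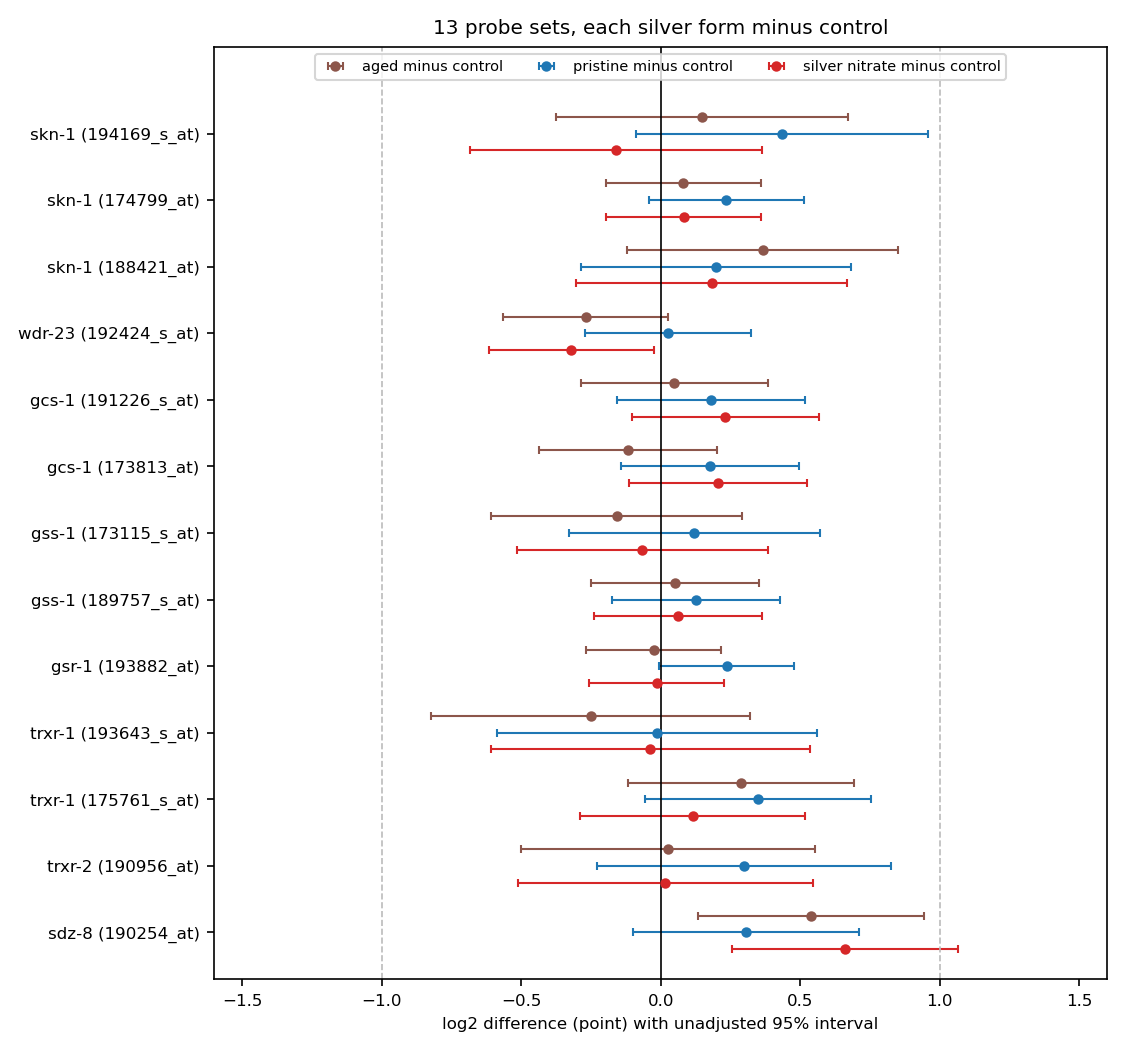
Log2 difference from control (horizontal axis) of each of the 13 probe sets for aged particles, pristine particles and silver nitrate, with unadjusted 95% intervals from limma; dashed lines mark a doubling and a halving. Most intervals include 0, and those that do not are sdz-8 with aged particles and with silver nitrate and wdr-23 with silver nitrate.

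Set side by side, the 8 genes lay mostly above control with pristine particles and on both sides of it with the other forms. With pristine particles the median log2 difference was 0.21 and 7 of 8 genes were above control, while 46.7% of all probe sets lay higher and their median was 0. Of the 13 probe sets, 4 had all pristine arrays above all control arrays, against 5.33% of all probe sets. These were 2 of skn-1, 1 of gcs-1 and that of gsr-1. With aged particles 4 of 8 lay higher (median 0.00), and with silver nitrate 3 of 8 (median −0.03), where the medians of all probe sets were −0.03 and −0.01. In each of these comparisons 1 of 13 probe sets, that of sdz-8, had all exposed arrays above control, against 4.37% of all probe sets with aged particles and 6.05% with silver nitrate. With aged particles 1 of 13, the dimmer of gcs-1, had all arrays below control, against 6.7%. These comparisons share the control arrays. The members were chosen with earlier results of these data known, so the counts describe them and are not a test. Control replicate 3 was the lowest control array for 6 of the 8 genes and the highest for sdz-8. Without it, 6 of 8 genes lay above control with pristine particles and the median was 0.07. The same omission left 2 of 8 above control with aged particles (median −0.14) and 2 of 8 with silver nitrate (median −0.21).

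The groups were also put in the order of their mean levels. No gap between neighbours in that order passed (smallest limma adjusted p = 0.588), and since neighbours are the closest groups this does not show that they were alike. Pristine particles came first for skn-1, wdr-23, gss-1, gsr-1 and trxr-2, taking the brightest probe set of each. Silver nitrate came first for gcs-1 and sdz-8, and control for trxr-1.

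**Figure D3:**
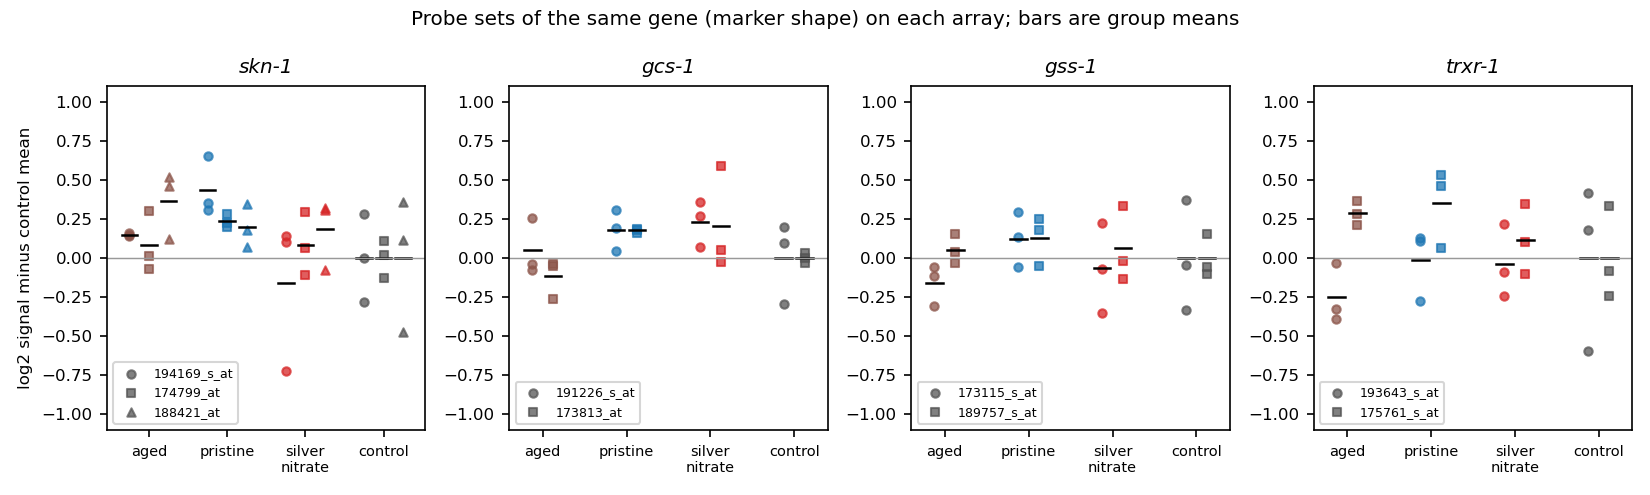
Log2 signal minus the control mean (vertical axis) for each probe set of skn-1, gcs-1, gss-1 and trxr-1 on every array; marker shapes are probe sets, points are arrays and bars are group means. The bars of the 2 trxr-1 probe sets lie on opposite sides of 0 in all exposed groups, and those of gcs-1 lie together with pristine particles and with silver nitrate.

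Between the silver forms, 0 of the 13 probe sets were called in any of the 3 comparisons. limma called 0.111% of all probe sets between aged and pristine particles, 0.253% between aged particles and silver nitrate, and 0.00443% between pristine particles and silver nitrate. Aged particles lay below pristine particles for 7 of 8 genes, with a median log2 difference of −0.27, where the median of all probe sets was −0.03. In this comparison 4 of 13 probe sets had all aged arrays below all pristine arrays, against 8.77% of all probe sets, and 1 had an unadjusted p under 0.05, against 10.3%. The 4 were wdr-23 (−0.30), gsr-1 (−0.26), the brightest of skn-1 (−0.29) and the dimmer of gcs-1 (−0.29), with limma adjusted p between 0.445 and 0.728. All but wdr-23 were also counted above for pristine arrays over control, and both counts use the same pristine arrays. Among the 8 genes, each by its brightest probe set, the exception to the direction was sdz-8, at 0.23 ± 0.18 (SE, limma adjusted p = 0.715). The dimmest skn-1 probe set also lay higher with aged particles, at 0.17 ± 0.21 (SE, limma adjusted p = 0.858).

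Pristine particles lay above silver nitrate by 0.60 ± 0.23 for the brightest skn-1 probe set (SE, 95% interval 0.07 to 1.12, limma adjusted p = 0.458). Silver nitrate replicate 1 carried much of this, since the difference was 0.32 without it. The second skn-1 probe set gave 0.15 ± 0.12 and the dimmest 0.01 ± 0.21 (SE), both with overlapping arrays. For wdr-23 the same comparison gave 0.35 ± 0.13 (SE, 95% interval 0.05 to 0.64, limma adjusted p = 0.441), and for gsr-1 0.25 ± 0.11 (SE, limma adjusted p = 0.508). The brightest skn-1 probe set, wdr-23 and gsr-1 were the 3 of 13 with an unadjusted p under 0.05, against 9.54% of all probe sets. In that skn-1 probe set and in wdr-23 the pristine arrays lay above all silver nitrate arrays, against 7.77%. Between aged particles and silver nitrate the median log2 difference of the 8 genes was −0.05, with probe set intervals from −0.79 (trxr-1) to 0.83 (skn-1). The largest difference there was that of the dimmer gcs-1 probe set (−0.32 ± 0.14 SE, limma adjusted p = 0.446). That was the 1 probe set of 13 with an unadjusted p under 0.05 here, against 11% of all probe sets. Its aged arrays all lay below those of silver nitrate, as for 7.72% of all probe sets. The brightest skn-1 probe set had its aged arrays above (0.31 ± 0.23 SE), as for 7.49%, but only by 983.4 against 983.3 in scaled signal. In deposited signal these groups overlapped, with 967 in aged replicate 2 and 992 in silver nitrate replicate 2. Without silver nitrate replicate 1 the difference was 0.03, and the second skn-1 probe set gave −0.003 ± 0.12 (SE). Against pristine particles the gcs-1 interval ran from −0.61 to 0.03. sdz-8 was the lowest of the members for pristine particles minus silver nitrate (−0.35 ± 0.18 SE, limma adjusted p = 0.597), and its aged minus silver nitrate interval ran from −0.53 to 0.28.

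**Figure D4:**
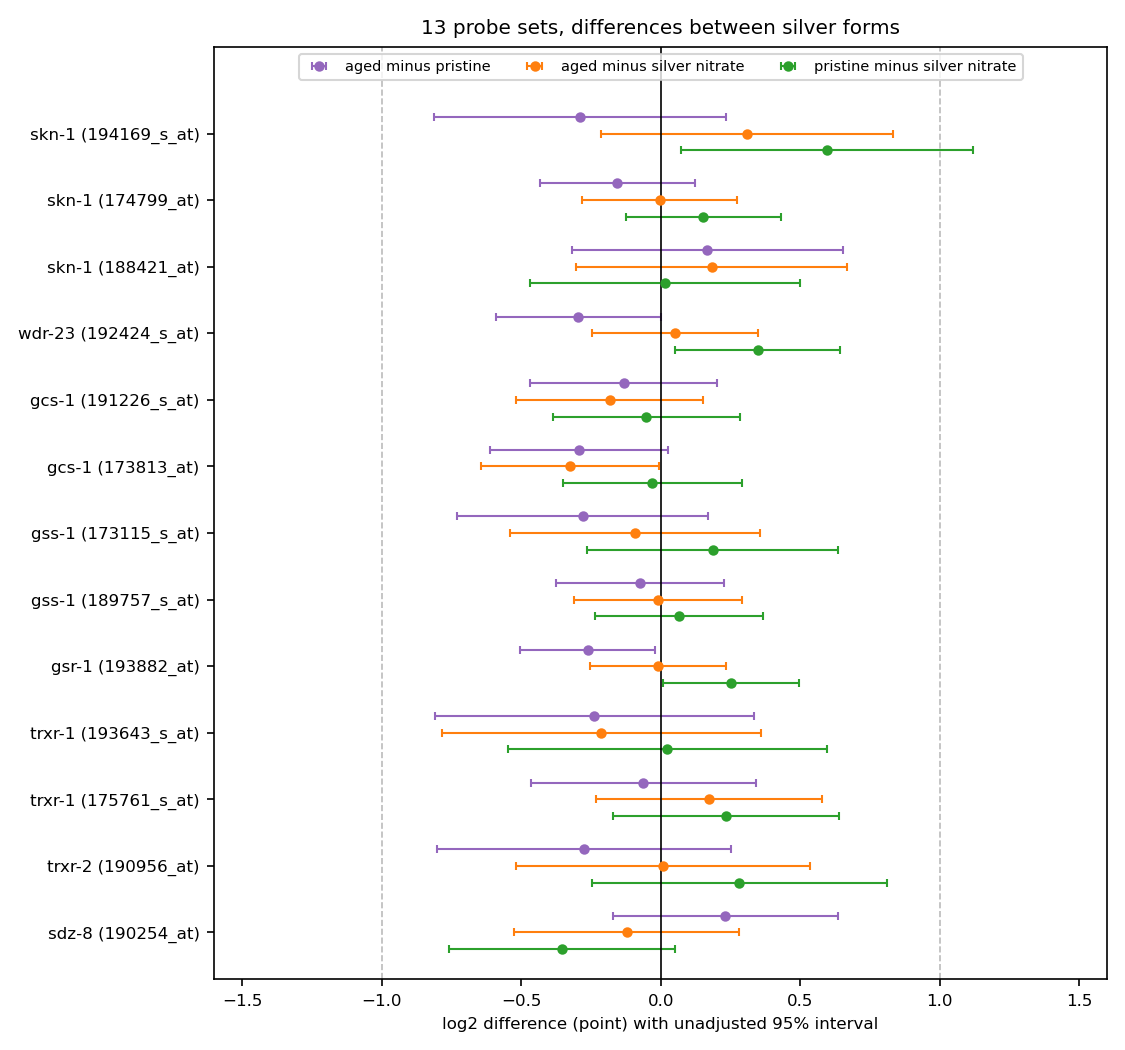
Log2 difference between silver forms (horizontal axis) of each of the 13 probe sets, with unadjusted 95% intervals from limma; dashed lines mark a doubling and a halving. For pristine particles minus silver nitrate, the intervals of the brightest skn-1 probe set, wdr-23 and gsr-1 lie above 0.

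Other genes of these pathways were followed as 8 lists, chosen with earlier results of these data known. Over the 129 further genes measured, none passed against control with any silver form. The share called of all probe sets was 0.00887% (aged), 0.00443% (pristine) and 0.133% (silver nitrate). Between aged particles and silver nitrate 1 gene passed, against 0.253% of all probe sets. That gene was ugt-9, a UDP-glucuronosyltransferase on the list of SKN-1 targets. It read 167, 146 and 165 with aged particles and 413, 384 and 328 with silver nitrate, while pristine particles gave 210, 240 and 226 and control 192, 253 and 284. All aged arrays lay below, and all silver nitrate arrays above, every array of the other groups. Over all probe sets, 6.7% had all aged arrays below control and 6.05% all silver nitrate arrays above control. All aged arrays lay below silver nitrate for 7.72%. Between those 2 groups ugt-9 was 2.34-fold lower with aged particles, a log2 difference of −1.23 ± 0.14 (SE, limma adjusted p = 0.0153). With replicate number as a block the adjusted p was 0.0553, with the 6 compared arrays alone 0.089, and without aged replicate 2 or 3 or silver nitrate replicate 1 between 0.0607 and 0.0692. Against control it was −0.59 with aged particles (limma adjusted p = 0.312) and 0.64 with silver nitrate (adjusted p = 0.126).

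Among the 25 SKN-1 targets, which include gcs-1 and sdz-8, 20 lay higher with aged particles, 18 with pristine particles and 20 with silver nitrate. Their median log2 differences were 0.12, 0.18 and 0.22, against −0.03, 0 and −0.01 for all probe sets. With silver nitrate 8 of the 25 had an unadjusted p under 0.05 and a higher value, against 5.17% of all probe sets, and 0 were lower. With pristine particles 6 did so, against 4.09%, and with aged particles 3, against 3.49%. The limma adjusted p-values of all of these missed the threshold, the smallest being 0.101. The glutathione S-transferase gst-30 read 209, 187 and 201 with aged particles, 171, 151 and 122 with pristine particles, 319, 345 and 286 with silver nitrate, and 123, 158 and 212 in control. All its silver nitrate arrays lay above all others, with a log2 difference from control of 0.98 (limma adjusted p = 0.101). Silver nitrate arrays lay above all control arrays for 6.05% of all probe sets. The pterin enzyme gene ptps-1 ran differently, with 0.16 (aged), 0.70 (pristine) and −0.29 (silver nitrate) and limma adjusted p of 0.282 or more.

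Regulators of SKN-1, a list of both activators and repressors, lay on both sides of control. Of 24 measured, 15, 13 and 12 lay higher with aged particles, pristine particles and silver nitrate, with medians of 0.07, 0.06 and 0.00. With silver nitrate 4 had an unadjusted p under 0.05 and a higher value, against 5.17% of all probe sets, and 4 a lower value, against 7.13%. With aged particles 1 was higher and 2 lower by this rule (3.49% and 4.76%), and with pristine particles 1 and 1 (4.09% and 4.54%). The insulin receptor gene daf-2, whose pathway restrains SKN-1, averaged 6.28 (aged), 6.74 (pristine), 6.82 (silver nitrate) and 7.41 (control) in log2 signal, on a probe set whose name marks possible cross-hybridisation. The highest silver-exposed array read 120 and the lowest control array 137, so all silver arrays lay below control, as for 0.825% of all probe sets. This gene was named for the smallest F-test p of its list. The log2 differences were −1.14, −0.67 and −0.59, with limma adjusted p of 0.184, 0.378 and 0.274. png-1, the peptide N-glycanase gene whose product removes N-glycans from a SKN-1 isoform, was at 0.48 with silver nitrate (limma adjusted p = 0.127). tir-1, which starts the p38 kinase cascade that activates SKN-1, was at −0.59 with silver nitrate (limma adjusted p = 0.261).

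Of 22 genes of glutathione use, 6 lay higher with aged particles, 6 with pristine particles and 11 with silver nitrate, with medians of −0.07, −0.08 and −0.01. The glutathione peroxidase gene gpx-7 had its largest value with silver nitrate (0.85, limma adjusted p = 0.195), while gpx-3 was at −0.38 with pristine particles (limma adjusted p = 0.496). The omega-class transferase gsto-3 had −0.15, −0.24 and 0.04 in the aged, pristine and silver nitrate groups. Of the 6 cysteine supply genes 5 lay lower with each silver form, with medians of −0.17, −0.14 and −0.17. sams-1, which makes S-adenosylmethionine, read 4163, 4034 and 5491 with silver nitrate and 8381, 7285 and 6575 in control. The silver nitrate arrays were all below the control arrays, as for 8.03% of all probe sets, with a log2 difference of −0.71 (limma adjusted p = 0.112). In the same list cbs-1 was at −0.43 and cth-1 at 0.23 with silver nitrate (limma adjusted p = 0.332 and 0.6).

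The 8 NADPH supply genes had medians of −0.06 (aged), 0.02 (pristine) and −0.02 (silver nitrate). The transhydrogenase nnt-1 was at −0.17, the isocitrate dehydrogenase idh-2 at 0.31 and the transketolase tkt-1 at 0.30 with silver nitrate, with limma adjusted p of 0.131, 0.214 and 0.25. The 12 genes of the thioredoxin system had medians of −0.06, −0.09 and 0.03, and those named by p were trx-4 (−0.31 with pristine particles, limma adjusted p = 0.343), mitochondrial trx-2 (−0.34 with silver nitrate, adjusted p = 0.291) and the peroxiredoxin prdx-2 (−0.19 with silver nitrate, adjusted p = 0.407). Of the selenocysteine genes that trxr-1 depends on, 3 were measured: pstk-1 was at −0.49, seld-1 at −0.14 and secs-1 at −0.04 with aged particles, with limma adjusted p of 0.524 or more. Proteasome subunits, targets of a SKN-1 isoform, lay higher for 13 of 31 genes with aged particles, 27 with pristine particles and 22 with silver nitrate. Their medians were small, at −0.04, 0.09 and 0.05. The core subunit pas-6 had −0.07, 0.16 and 0.17, pas-3 had −0.16, 0.02 and −0.29, and the regulatory subunit rpn-8 had −0.16, 0.08 and 0.00 in the same order, with no limma adjusted p below 0.308.

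**Figure D5:**
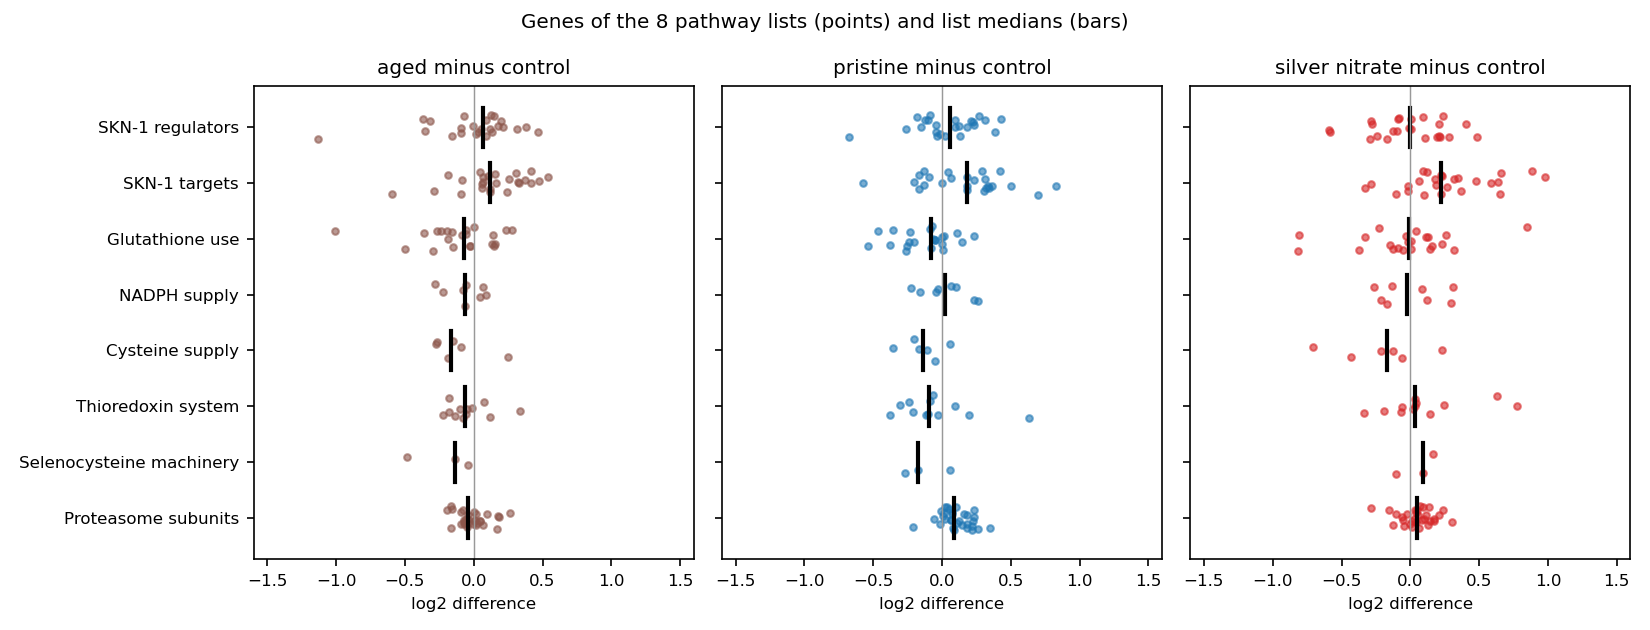
Log2 difference from control (horizontal axis) of the measured genes of each pathway list for aged particles, pristine particles and silver nitrate; points are genes, with vertical scatter for visibility, and black bars are list medians. The SKN-1 targets have the highest median of the 8 lists in each panel.

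The genes whose 12-array pattern was most like each member's were taken from 8623 other genes above median brightness, by Pearson's r, as a description. For skn-1 they were lin-36 (r = 0.938, rho = 0.853) and hrpa-1 (r = 0.902, rho = 0.769). For gsr-1 they were the fatty acid elongase elo-6 (r = 0.977, rho = 0.937) and hacd-1 (r = 0.961, rho = 0.972). These last genes had log2 differences of 1.11 and 0.96 with pristine particles, against 0.24 for gsr-1. For gcs-1 they were the cytochrome P450 gene cyp-33C3 (r = 0.937, rho = 0.923) and ipla-1 (r = 0.915, rho = 0.902). For sdz-8 they were bra-2 (r = 0.911, rho = 0.951) and the lectin gene clec-51 (r = 0.89, rho = 0.874). The nearest to wdr-23 were T20G5.9 and Y4C6B.3, to gss-1 ndub-7 and let-60, to trxr-1 H05C05.2 and clc-2, and to trxr-2 klc-2 and gst-3, with r between 0.863 and 0.903. After removing group means, r was between 0.733 and 0.963 over all 16 pairs. The pairs were chosen on an r that includes this spread within groups, so these values are no separate observation. All these pairs were picked as the highest among many genes on the same arrays.

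Markers of several tissues differed in their array ranges between the groups, while no marker gene was called in any comparison. The smallest limma adjusted p was 0.0584, for an oocyte marker with silver nitrate against control, where 0.133% of all probe sets were called. Since whole animals were used, a change in the number of cells of a type and a change in RNA per cell cannot be told apart. The mean log2 level of 10 intestine markers was 10.69 to 10.92 (aged), 10.75 to 10.84 (pristine), 10.94 to 11.02 (silver nitrate) and 10.65 to 10.75 (control), and their summed signal overlapped in all groups. For 10 germline markers it was 6.67 to 7.17, 7.02 to 7.03, 7.02 to 7.36 and 6.37 to 6.83 in the same order, and for 9 oocyte markers 6.30 to 6.70, 6.71 to 6.83, 6.79 to 6.84 and 5.90 to 6.63. The summed signal of the germline markers was 1242 to 1875, 1686 to 1930, 1717 to 2074 and 1028 to 1459, and that of the oocyte markers 1041 to 1267, 1409 to 1489, 1394 to 1570 and 859 to 1227. Pristine and silver nitrate arrays were above all control arrays for both of these lists, and in mean log2 level for the intestine list. For 8 epidermis markers the summed signal was 12436 to 16636 with aged particles, 8571 to 9851 with pristine particles, 9136 to 12371 with silver nitrate and 8308 to 10262 in control. With aged particles 5 of these 8 lay above control and 3 below. By unadjusted limma p under 0.05, 1 was higher, against 3.49% of all probe sets. Neuron (10), ASI neuron (3), body wall muscle (7) and sperm (5) markers overlapped between each silver group and control in mean log2 level. In summed signal the neuron markers lay lower with aged particles, at 50595 to 53378, than in control, at 56015 to 62080. The part of these shifts in the values of the 8 genes was not tested.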

How the data were processed

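RNA from 12 samples was measured on Affymetrix C. elegans arrays (100 ng labelled with the IVT Express kit, per the labels' protocols). The deposited intensity values, 1 per probe set on a linear scale, had already been scaled by the authors: the mean after trimming 2% from each end was 500.1 to 500.2 in every array. The summarisation software is not given in the sources used here. Deposited array medians were 119.1 to 135.1. The number of arrays limits the precision.

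From these, 77 array controls were removed. Arrays were scaled to the common median, values under 16 set to 16, and log2 taken. This shifted differences from control by −0.03 in log2 for both particle groups and by −0.07 for silver nitrate. Names came from the platform annotation, updated through the reference gene table by gene identifier. Of 22548 probe sets, 20766 had 1 gene, 887 several and 895 none; no several-gene probe set was used for a member. The probe set with the highest mean stands for a gene. An _s_at probe set may read several transcripts.

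limma 3.58.1 (R 4.3.3) fitted a mean per group to all 12 arrays (8 residual and 0.94 prior degrees of freedom), with 7 contrasts and an F test, each adjusted over all probe sets; every adjusted p in the text is from limma. The fit was tested on simulated data. Further pathway genes named are the 3 per list with the smallest F-test p, and closest patterns the 2 genes per member with the highest r; genes of 1 list that passed are also named. Alternatives were quantile or deposited scaling, a lower and a higher floor, a brightness filter, the compared arrays alone, trend with robust fitting, a replicate block and leaving out each array. Members and lists were chosen with earlier results of these data known. Array pairs correlated at r = 0.974 to 0.982 within and 0.968 to 0.983 between groups.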

Additional observations from a re-analysis of the deposited data

Results flagged for a closer look

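The dimmer probe set of gcs-1 drew attention because all aged-particle arrays lay below and all pristine-particle arrays above all control arrays. The log2 difference of aged minus pristine was −0.29 ± 0.14 (SE), and the test of that difference missed the threshold (limma adjusted p = 0.532, and 0.153 to 0.779 over the alternatives). The brighter gcs-1 probe set gave −0.13 ± 0.15 (SE) with overlapping arrays.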

How the results depend on the processing

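The count of called member probe sets was 0 in all 7 contrasts and in the F test, under each of 20 other settings: 2 other scalings, 2 other floors, a brightness filter, the compared arrays alone, trend with robust fitting, a replicate block and leaving out each array. Over these settings the smallest adjusted p of any member was 0.0664, for sdz-8 with silver nitrate among the 11274 probe sets above median brightness. Of the 39 member differences from control, 18 changed sign under at least 1 setting, 13 of them only when an array was left out, and the largest of the 18 had a size of 0.20. With the replicate block, sdz-8 with silver nitrate had a limma adjusted p of 0.214, at a log2 difference of 0.66. No member was called without the block, so it had no member call to end. Same-numbered arrays deviated with r between −0.24 and 0.22 over 18 pairs, 5 of them over 0.1. Between silver groups every r was positive (0.02 to 0.22), and with control r ran from −0.24 to 0.08. The main fit did not treat the numbers as pairs, and whether same-numbered arrays belong together was not tested. The ugt-9 call between aged particles and silver nitrate was lost under the replicate block (adjusted p = 0.0553), and the cause was not tested. Above median brightness, 3 named genes passed between silver nitrate and control: ugt-9 (adjusted p = 0.0495), gst-30 (0.0177) and sams-1 (0.0377), where fewer probe sets were tested. gst-30 also passed without control replicate 3 (0.0484). The number of all probe sets called varied far more: for aged particles against control 2, and 1 to 13 with other settings or 2 to 16 leaving out 1 array; for pristine particles 1, and 0 to 18 or 1 to 17; for silver nitrate 30, and 0 to 185 or 4 to 46; for the mean of the 3 silver groups 1, and 1 to 3 or 1 to 14; for the F test 14, and 14 to 224 or 12 to 43. Between aged and pristine particles it was 25, and 8 to 107 or 5 to 23; between aged particles and silver nitrate 57, and 13 to 182 or 24 to 67; between pristine particles and silver nitrate 1, and 0 to 80 or 0 to 13. Counts of called pathway genes, added after seeing the data, were 0 against control with silver nitrate and up to 4 above median brightness, 0 between pristine particles and silver nitrate and in the F test and up to 3 there, and 1 between aged particles and silver nitrate, with 0 to 2 elsewhere. With 3 arrays a group, the member intervals reached 2.09-fold against control and 2.18-fold between silver forms.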
